A study of Arabidopsis thaliana with 28 samples.

Results

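*PIF4* (AT2G43010), *PIF5* (AT3G59060), *YUC8* (AT4G28720), *YUC9* (AT1G04180), *IAA19* (AT3G15540) and *IAA29* (AT4G32280) are 6 genes of a light and auxin growth pathway, picked by name and locus from the 28437 genes of the expression table because this pathway has been linked to the growth vigor of hybrids. All 6 had a row, and all 6 were among the 22329 genes that reached 1 RPM, the reads of a gene scaled to a fixed library total, in 3 or more libraries. RNA was measured in 24 libraries of whole *Arabidopsis* seedlings, 3 replicates of each of 8 genotypes, grown on plates for 2 weeks at 22 °C with 16 h of light and 8 h of dark after 7 days of stratification. The genotypes were the parents WT-Col and WT-C24, their reciprocal F1 hybrids WT-ColxC24 and WT-C24xCol (mother named first), and the same 4 in the *ddm1* background, *ddm1*-Col, *ddm1*-C24, *ddm1*-ColxC24 and *ddm1*-C24xCol. *DDM1* is the chromatin remodeler that keeps DNA methylation on transposons, and both parents of a *ddm1* hybrid carried a *ddm1* mutation. The study crossed several *ddm1* alleles per accession, and those of the RNA libraries are not given in the sources used here. The 6 libraries of both hybrid directions together are called WT-F1 or *ddm1*-F1, and the mid-parent value (MPV) averages the RPM of both parents' libraries that carry one replicate number.

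*PIF4* and *PIF5* encode phytochrome-interacting factors, transcription factors that drive stem and petiole elongation and are degraded when light activates phytochrome. Their transcripts follow the circadian clock, since the evening complex of *ELF3*, *ELF4* and *LUX* represses both genes early in the night. PIF proteins bind G-boxes and PBE-boxes and raise auxin synthesis genes, among them *YUC8* and *YUC9*, which encode flavin monooxygenases of the last step to auxin. *IAA19* and *IAA29* encode Aux/IAA proteins, repressors of auxin response whose own genes are induced by auxin and by PIFs in seedlings.

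The genes lie on 4 chromosomes and none overlaps another annotated gene in RefSeq TAIR10.1. The annotation places *PIF4* at chr2:17886101-17889087 on the plus strand, *PIF5* at chr3:21827905-21830837 on the minus strand and *YUC8* at chr4:14192569-14194302 on the plus strand. *YUC9* lies at chr1:1104493-1106241, *IAA19* at chr3:5264001-5265695 and *IAA29* at chr4:15583332-15584903, all on the plus strand. The 300 bases before the annotated start were read on the strand of each gene and searched on both strands for the G-box CACGTG, the PBE-box CACATG and the auxin response element TGTCTC. The upstream sequences of the 4 members with a match are shown, 5′ to 3′, because these are the letters through which PIF and auxin response factors are known to act. Capitals mark the matches.
*PIF5* (chr3:21830838-21831137, minus strand): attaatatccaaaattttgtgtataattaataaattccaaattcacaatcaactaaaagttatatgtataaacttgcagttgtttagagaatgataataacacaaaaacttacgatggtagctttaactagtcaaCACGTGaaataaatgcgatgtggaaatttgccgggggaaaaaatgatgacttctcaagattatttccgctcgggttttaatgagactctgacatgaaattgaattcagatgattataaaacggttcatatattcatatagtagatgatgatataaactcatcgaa
*YUC8* (chr4:14192269-14192568, plus strand): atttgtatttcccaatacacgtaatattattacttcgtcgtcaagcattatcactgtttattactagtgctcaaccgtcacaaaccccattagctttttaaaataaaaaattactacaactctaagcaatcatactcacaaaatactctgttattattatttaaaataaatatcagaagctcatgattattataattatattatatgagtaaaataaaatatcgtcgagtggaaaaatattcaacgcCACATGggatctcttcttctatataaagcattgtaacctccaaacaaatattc
*YUC9* (chr1:1104193-1104492, plus strand): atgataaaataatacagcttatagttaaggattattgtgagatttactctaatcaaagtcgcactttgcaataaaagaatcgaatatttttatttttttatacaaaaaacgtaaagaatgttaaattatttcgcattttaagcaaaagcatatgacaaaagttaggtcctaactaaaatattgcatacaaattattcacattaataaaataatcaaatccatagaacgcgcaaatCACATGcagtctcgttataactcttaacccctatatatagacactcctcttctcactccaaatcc
*IAA19* (chr3:5263701-5264000, plus strand): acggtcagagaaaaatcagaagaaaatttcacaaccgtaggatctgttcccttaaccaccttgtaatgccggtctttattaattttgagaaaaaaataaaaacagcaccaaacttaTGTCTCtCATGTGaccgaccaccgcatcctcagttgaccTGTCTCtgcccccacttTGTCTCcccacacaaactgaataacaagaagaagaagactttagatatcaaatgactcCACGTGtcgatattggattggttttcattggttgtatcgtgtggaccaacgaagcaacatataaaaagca

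*PIF5* held a G-box 165 to 160 bases before its start. *YUC8* and *YUC9* each held a PBE-box close to the start, 53 to 48 and 65 to 60 bases before it. *IAA19* held all 3 kinds of match: a G-box 70 to 65 bases before the start, a PBE-box on the other strand at 177 to 172, and 3 auxin response elements, of which the one at 184 to 179 lies 1 base from the PBE-box. *PIF4* and *IAA29* had no match in this window. Among 22295 upstream windows of 300 bases, 7.55% held a G-box, 12.8% a PBE-box and 12.8% an auxin response element. In 1000 bases, where 15.2%, 37.2% and 39.7% of windows held them, *YUC8* gained G-boxes at 484 to 479 and 448 to 443, *PIF4* a PBE-box at 507 to 502, *PIF5* an auxin response element at 644 to 639, and *IAA19* PBE-boxes at 659 to 654 and 344 to 339. A match is a description of the letters only.

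Per kilobase of exon, the scale on which genes can be compared, *PIF4* and *PIF5* were the abundant members. In the 8 libraries numbered 1 their median levels were 71.4 and 60.9 RPM per kb, against 0.98 for *YUC8*, 1.12 for *YUC9*, 1.88 for *IAA19* and 2.1 for *IAA29*. *YUC8*, *YUC9* and the Aux/IAA members therefore sat at a few RPM, where the 0.1 RPM step of the table is a coarse part of the value. The depth of the libraries is not known here.

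*PIF4* differed more between replicate numbers than between genotypes. In the libraries numbered 1, *PIF4* had 191.7 RPM in WT-Col, 214.4 in WT-ColxC24, 229.3 in WT-C24xCol, 198.7 in WT-C24, 179.2 in *ddm1*-Col, 177.8 in *ddm1*-ColxC24, 138.3 in *ddm1*-C24xCol and 90.5 in *ddm1*-C24. In those numbered 2 it had, in the same order, 108.1, 130.2, 144.5, 122.1, 125.3, 126.2, 115.1 and 14.5 RPM. In those numbered 3 it had 11.0, 13.3, 18.3, 10.9, 15.2, 21.4, 15.2 and 12.9 RPM. Every library numbered 3 was thus below every library numbered 1, and *ddm1*-C24 replicate 2 was the 1 library numbered 2 that lay within the range of those numbered 3.

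*PIF5* behaved the same way. Its levels in the libraries numbered 1, in the order above, were 118.8, 149.9, 162.0, 183.4, 162.8, 186.9, 147.6 and 148.1 RPM. In the libraries numbered 2 they were 66.3, 74.5, 128.9, 123.0, 92.6, 111.4, 96.6 and 18.3 RPM. In the libraries numbered 3 they were 9.7, 10.6, 14.1, 7.9, 15.1, 20.9, 13.8 and 19.6 RPM. WT-Col was lowest or next to lowest in each number, and *ddm1*-C24 replicate 2 again had a level found otherwise only in libraries numbered 3.

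*IAA29* also separated by number, but with its highest levels in the libraries numbered 2. Its levels were 2.2, 2.6, 3.1, 2.5, 2.8, 3.0, 2.9 and 1.5 RPM in number 1. In number 2 they were 4.3, 5.2, 6.6, 7.0, 5.7, 9.8, 5.4 and, in *ddm1*-C24, 0.5 RPM. In number 3 they were 0.3, 0.7, 0.8, 0.7, 0.7, 0.9, 0.7 and 0.8 RPM. *IAA29* was therefore under 1 RPM in all 8 libraries numbered 3 and in *ddm1*-C24 replicate 2.

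*IAA19* was lowest in number 1, unlike *IAA29*. It ran from 1.2 RPM (median 1.90) to 2.9 RPM in number 1, from 2.9 (median 4.50) to 7.1 RPM in number 2 and from 2.8 (median 3.5) to 4.2 RPM in number 3. *ddm1*-Col and *ddm1*-ColxC24 had the highest *IAA19* levels in numbers 1 and 2. *YUC8* ran from 1.0 (median 1.70) to 2.9 RPM in number 1, from 1.7 (median 2.05) to 4.6 RPM in number 2 and from 1.2 (median 1.45) to 2.3 RPM in number 3. *YUC9* ran from 1.1 (median 1.85) to 3.1 RPM, from 1.2 (median 2.00) to 3.2 RPM and from 0.8 (median 1.65) to 2.2 RPM. The ranges of both YUC genes overlapped between all numbers.

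**Figure D1:**
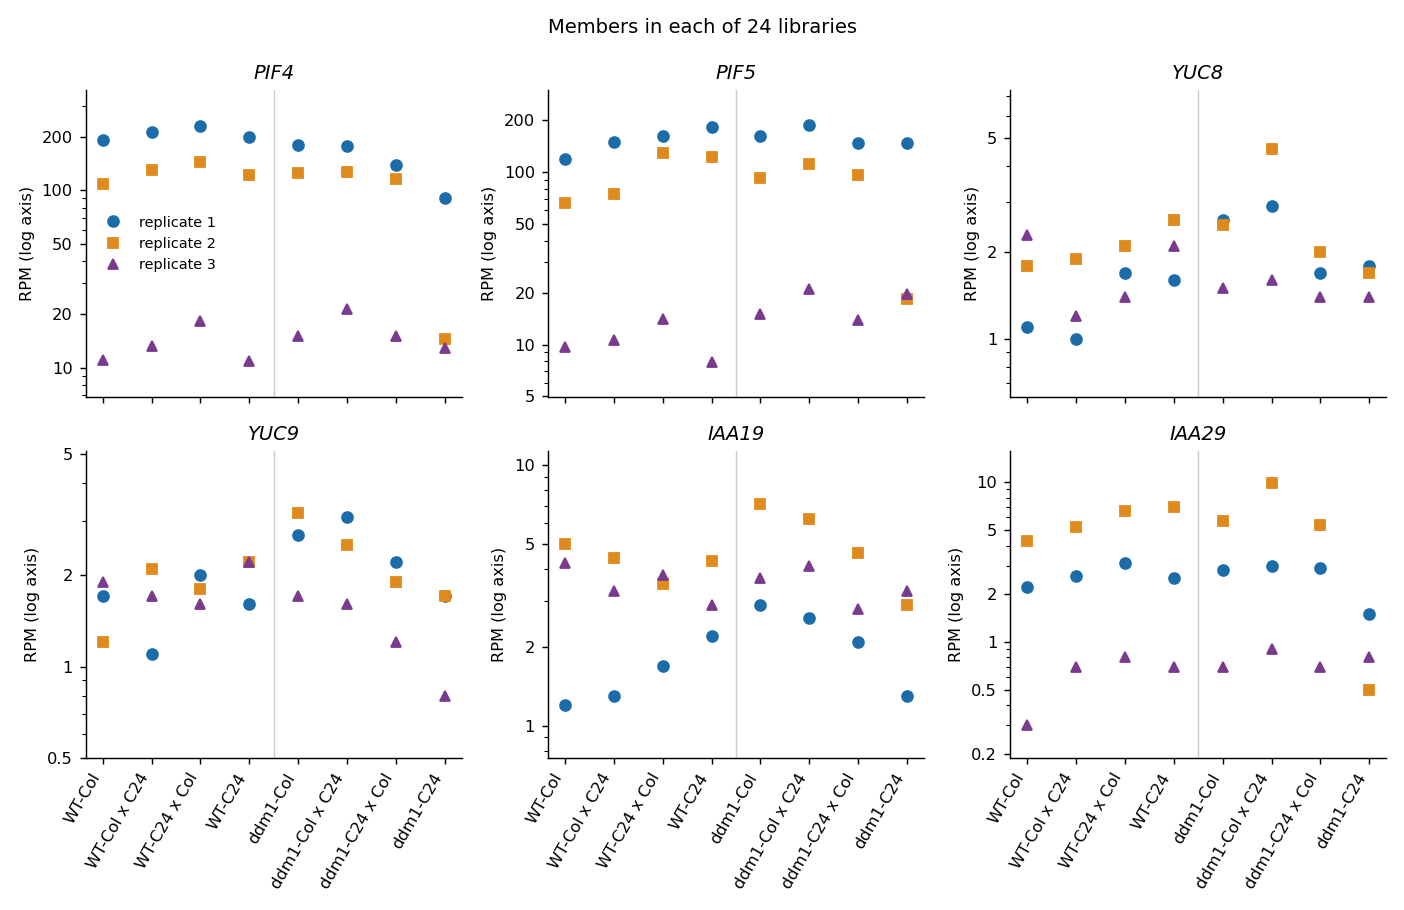
RPM on a log axis (vertical) of each member in the 8 genotypes (horizontal; left of the line WT, right of it *ddm1*), 1 point per library, colour and shape giving the replicate number. For *PIF4* and *PIF5* the purple triangles of replicate 3 (7.9 to 21.4 RPM) lie below all blue circles of replicate 1 (at least 90.5 RPM), and the orange square of *ddm1*-C24 lies with the triangles, as it does for *IAA29*.

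The difference between numbers was tested with limma on log2(RPM + 0.5), with genotype in the model and Benjamini-Hochberg adjustment over all tested genes (two-sided, here and below). 5 of the 6 members differed among the numbers, all but *YUC9*, beside 87.0% of all tested genes, so that a difference as such was common. Of the called genes 13393 were higher and 6040 lower in number 3 than in number 1, and after rescaling by median ratios 9497 and 9399. Number 3 was lower than number 1 by −3.53 log2 units (SE 0.24, adjusted p = 1.18e-10) for *PIF4*, and only 24 of the 22329 genes had a lower value. For *PIF5* the difference was −3.5 (SE 0.26, adjusted p = 4.24e-10), with 26 genes lower. *IAA29* fell by 1.35 between the same numbers (SE 0.24, adjusted p = 4.55e-05) and *IAA19* rose by 0.77 (SE 0.12, adjusted p = 1.56e-05). *YUC8* and *YUC9* had −0.09 (SE 0.14, adjusted p = 0.562) and −0.26 (SE 0.14, adjusted p = 0.114). In this contrast 21.9% of all tested genes were lower and 54.9% higher, and the median of all genes was 0.27, a shift that the rescaling removed. After rescaling *PIF4* stood at −3.84, *PIF5* at −3.82, *IAA29* at −1.57 and *IAA19* at 0.50, and *YUC8* (−0.34, adjusted p = 0.0468) and *YUC9* (−0.51, adjusted p = 0.00462) were lower as well. In the WT libraries alone both YUC genes had the opposite sign (0.27 and 0.17), while *PIF4* (−3.94) and *PIF5* (−3.81) kept theirs.

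Between numbers 2 and 1, where 27.8% of tested genes were lower and 39.9% higher, *PIF4* fell by 0.85 (SE 0.24, adjusted p = 0.00492) and *PIF5* fell by 0.99 (SE 0.26, adjusted p = 0.00286). *IAA19* rose by 1.12 (SE 0.12, adjusted p = 1.53e-07), *IAA29* by 0.78 (SE 0.24, adjusted p = 0.00759) and *YUC8* by 0.33 (SE 0.14, adjusted p = 0.0430). After rescaling *YUC8* no longer passed (0.25, SE 0.15, adjusted p = 0.151). Between numbers 3 and 2, where 12.4% were lower and 47.5% higher, *IAA29* fell by 2.14 (SE 0.24, adjusted p = 2.77e-06), *IAA19* fell by 0.36 (SE 0.12, adjusted p = 0.0193) and *YUC8* fell by 0.42 (SE 0.14, adjusted p = 0.0142). After rescaling *YUC9* was lower as well (−0.46, SE 0.15, adjusted p = 0.0143). *PIF4* stood at −2.68 (SE 0.24) and *PIF5* at −2.52 (SE 0.26) in that contrast. *PIF4*, *PIF5* and *IAA29* had no overlap between numbers 1 and 3, as did 34.7% of tested genes. With *ddm1*-C24 replicate 2 set aside, the same 3 genes did not overlap between numbers 2 and 3, beside 19.7% of tested genes. With it they overlapped, and only 3.68% of tested genes did not.

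**Figure D2:**
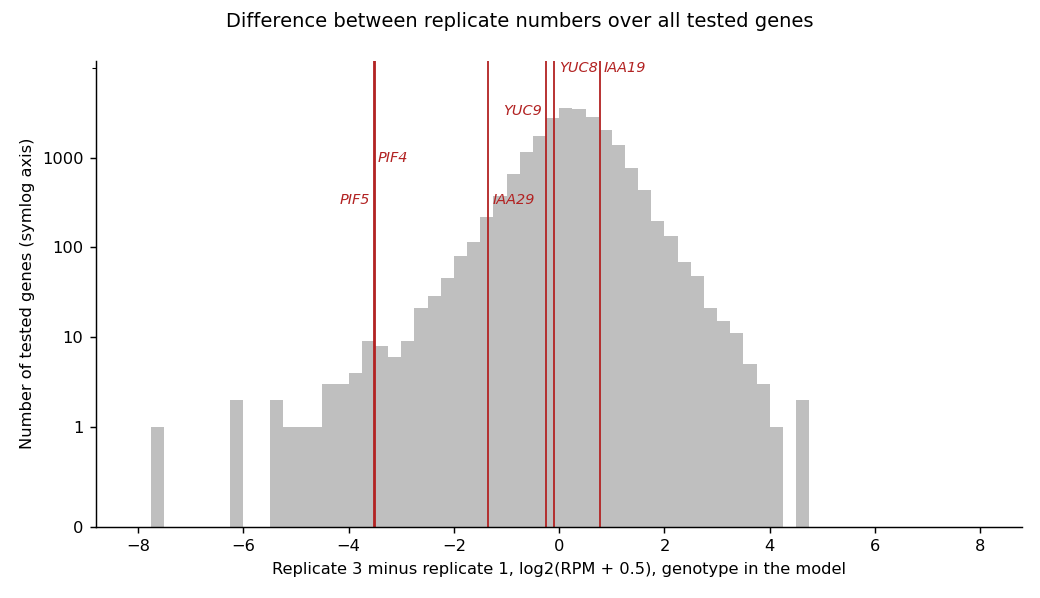
Histogram of the difference between replicates 3 and 1, in log2 units with genotype in the model (horizontal), over the 22329 tested genes (vertical, number of genes on a symmetric log axis); red lines mark the 6 members. *PIF4* (−3.53) and *PIF5* (−3.5) lie in the far left tail, *IAA29* at −1.35, both YUC genes near 0 and *IAA19* at 0.77.

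In the sums of squares, replicate number took 84.0% of the variation of *PIF4* and 87.4% of that of *PIF5*, and genotype 9.11% and 3.86%. For *IAA19* and *IAA29* the number took 70.1% and 69.5%. A larger part for number was common: in the median tested gene number took 51.9% and genotype 28.4%. Summed over all tested genes, number took 21.8% and genotype 73.5%. Genotype took the larger part for *YUC8* (41.2% against 23.1% for number) and for *YUC9* (39.3% against 14.6%), with 35.75% and 46.08% left to neither. Genotype has 8 levels and number has 3, and a factor with more levels takes a larger part by chance alone. The parts therefore do not rank genotype above number for these genes. Means over the numbers set aside the pairing of libraries by number, so their SDs hold the spread between numbers. *PIF4* ran from 130.7 ± 106 RPM (SD, n = 3) in WT-C24xCol to 39.3 ± 44.3 RPM in *ddm1*-C24, and *PIF5* from 106.4 ± 83.1 RPM in *ddm1*-ColxC24 to 62.0 ± 74.6 RPM in *ddm1*-C24. *YUC8* ran from 3.03 ± 1.5 RPM in *ddm1*-ColxC24 to 1.37 ± 0.473 RPM in WT-ColxC24, and *YUC9* from 2.53 ± 0.764 RPM in *ddm1*-Col to 1.40 ± 0.520 RPM in *ddm1*-C24. *IAA19* ran from 4.57 ± 2.23 RPM in *ddm1*-Col to 2.50 ± 1.06 RPM in *ddm1*-C24, and *IAA29* from 4.57 ± 4.65 RPM in *ddm1*-ColxC24 to 0.933 ± 0.513 RPM in *ddm1*-C24. No neighbours in these orders differed by more than the SDs of both, but these SDs do not measure the spread of genotype differences within numbers. Those differences are given below. *ddm1*-C24 was last for 5 members, the exception being *YUC8*.

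The clock genes, which govern the daily course of *PIF4* and *PIF5*, were examined in the same libraries. Number 3 had lower levels than number 1 for 5 of 7 clock genes (*PRR5*, *PRR7*, *PRR9*, *GI* and *CCA1*) and higher levels for none, and for *ELF4* of the evening complex the reverse held. *PRR7*, a repressor of morning genes, fell by 2.1 (SE 0.19, adjusted p = 6.42e-09) from a median of 215.9 to 54.2 RPM, and *GI*, a clock gene of the afternoon, fell by 2.02 (SE 0.18, adjusted p = 5.52e-09). *ELF4* rose by 2.43 (SE 0.39, adjusted p = 1.36e-05), from a median of 18.7 to 108.5 RPM, while *ELF3* (0.31, adjusted p = 0.121) and *LUX* (0.14, adjusted p = 0.719) did not pass the test. These counts were the same after rescaling. The time of day of harvest is not given in the sources used here, and what the replicate number stands for was not tested.

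Within number 2 the clock genes were not alike in all libraries. *CCA1*, a morning gene of the clock, had 62.0 RPM in WT-C24xCol and 74.8 RPM in WT-C24 of number 2, 1.7 RPM in *ddm1*-C24 and 3.8 to 10.5 RPM in the other 5. *ELF4* had 4.8 and 5.8 RPM in the first pair, 90.0 RPM in *ddm1*-C24 and 30.1 to 77.9 RPM in the rest. These 3 libraries were the only ones of 24 whose 10 clock and evening complex genes lay, at the median, more than 1 log2 unit from the other libraries of their number (2.06, 1.94 and 1.19, against at most 0.55 in the other 21). *ddm1*-C24 replicates 2 and 3 were also the closest of all 276 pairs of libraries (SD of the log2 difference 0.182), and they were kept as separate samples. Fits without them are given below beside several of the results.

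**Figure D3:**
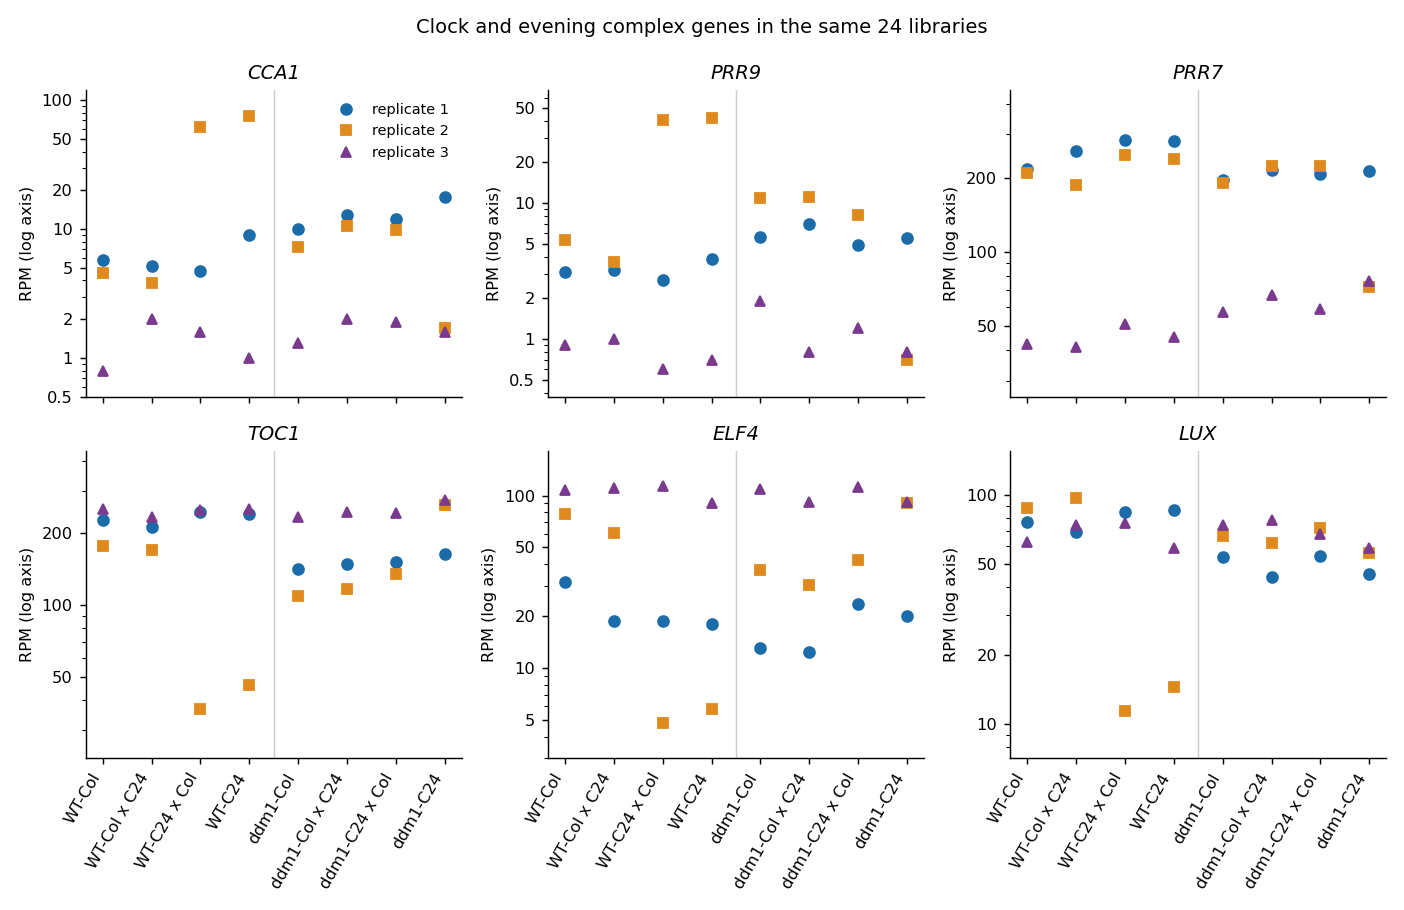
RPM on a log axis (vertical) of 4 clock genes and of *ELF4* and *LUX* of the evening complex in the 8 genotypes (horizontal; left of the line WT, right of it *ddm1*), 1 point per library, colour and shape giving the replicate number. In replicate 2 (orange squares) WT-C24xCol and WT-C24 stand apart, with *CCA1* at 62.0 and 74.8 RPM and *ELF4* at 4.8 and 5.8 RPM, and *ddm1*-C24 lies with the purple triangles of replicate 3.

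The mutation was visible in the libraries. *DDM1* had 1.7 to 2.6 RPM in *ddm1*-Col against 6.3 to 12.6 RPM in WT-Col, but 6.7 to 14.3 RPM in *ddm1*-C24 against 6.0 to 12.4 RPM in WT-C24. *SDC*, a gene silenced by DNA methylation in WT seedlings, had at most 0.5 RPM in the 12 WT libraries and at least 2.1 RPM in the 12 *ddm1* libraries, *ddm1*-C24 included (88.5 to 428.3 RPM). As markers of tissue, 5 leaf photosynthesis genes summed to 19490.1 to 47241.1 RPM, and the leaf sums were lower in number 3 (median 21390.7 RPM) than in number 1 (42017.8 RPM). This difference lay mainly in 3 of the 5 genes, *CAB1* (−2.85 log2 units), *LHCB2.1* (−5.36) and *LHCB3* (−2.69). *RBCS1A* (−0.25, adjusted p = 0.0656) and *RCA* (−0.14, adjusted p = 0.308) did not pass the limma test between these numbers. After rescaling by median ratios all 5 were called lower. The leaf sum thus does not measure its list evenly. The sum of 5 root markers was 53.5 to 75.7 RPM in *ddm1*-C24 and 14.3 to 64.0 RPM elsewhere. High sums depended on 1 gene, *IRT1*, which ranged from 0.7 to 50.8 RPM over all libraries. The highest levels of *PIN2*, *EXPA7*, *COBL9* and *NRT2.1* were 19.6, 8.7, 7.4 and 1.2 RPM, so the sum does not measure the list as a whole. The sum of 9 seed storage genes was 588.6 to 1964.3 RPM in WT-C24 and at most 654.4 RPM elsewhere. The part of these differences in the results on the members was not tested, and in whole seedlings fewer cells and less RNA per cell cannot be told apart.

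The question of how loss of *DDM1* bears on the members was asked first in Col. *PIF5* was higher in *ddm1*-Col than in WT-Col in all 3 numbers, by 0.45, 0.48 and 0.61 log2 units (162.8 against 118.8, 92.6 against 66.3 and 15.1 against 9.7 RPM). Without the number in the model the difference was 0.51 (SE 1.18, adjusted p = 1), and with a block for replicate number it was 0.51 with an SE of 0.06 (adjusted p = 0.00272). Without the block 0 of 6 members were called, with 0 at an unadjusted p under 0.05, beside 8.04% of tested genes. With the block 1 of 6 was called, beside 18.7%. *IAA29* was higher in each number too, by 0.29, 0.37 and 0.59 (SE 0.13, adjusted p = 0.0861 with the block). *PIF4* had −0.10, 0.21 and 0.45, and *YUC8*, *YUC9* and *IAA19* were higher in numbers 1 and 2 and lower in number 3. In the same fit with the block *CCA1* (0.61, adjusted p = 0.0238) and *PRR9* (0.83, adjusted p = 0.00670) were higher and *TOC1* (−0.49, adjusted p = 0.0493) and *ELF3* (−0.32, adjusted p = 0.0280) lower in *ddm1*-Col. The leaf markers *LHCB3* (0.70, adjusted p = 0.00872) and *LHCB2.1* (0.69, adjusted p = 0.0102) were higher as well. The part of these genes in the *PIF5* result was not tested.

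In C24 the comparison of *ddm1* with WT rested on *ddm1*-C24 replicate 2. *PIF4* differed by −1.13, −3.03 and 0.23 log2 units in numbers 1, 2 and 3, *PIF5* by −0.31, −2.72 and 1.26, and *IAA29* by −0.59, −2.91 and 0.12. None of the 6 members passed the limma test, with 0 at an unadjusted p under 0.05 without and with the block, beside 9.74% and 12.4% of tested genes. Without that library the blocked difference of *PIF4* was −0.45 (SE 0.41) in place of −1.31 (SE 0.67), and that of *PIF5* was 0.48 (SE 0.47) in place of −0.59 (SE 0.82). That of *IAA29* was −0.23 (SE 0.25) in place of −1.13 (SE 0.65). The difference between the *ddm1* effects in C24 and in Col, an interaction, was below 0 for all 6 members (−1.54 to −0.56), but 0 passed, with 1 (without the block) and 2 (with it) at an unadjusted p under 0.05, beside 5.06% and 12.5% of tested genes. The size rested in part on *ddm1*-C24 replicate 2. Without it the blocked value of *PIF5* was −0.20 (SE 0.39) in place of −1.10, that of *PIF4* −0.67 (SE 0.33) in place of −1.50, and that of *IAA29* −0.72 (SE 0.32) in place of −1.54.

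In the hybrids, *ddm1*-F1 against WT-F1 called 0 of 6 members, with 0 and 1 at an unadjusted p under 0.05, beside 10.4% without and 25.0% with the block. *YUC8* came nearest, higher in each number by 0.59, 0.51 and 0.15 (mean 0.42, SE 0.18, adjusted p = 0.106 with the block). The *YUC8* difference lay in the ColxC24 direction (1.18, 1.09 and 0.305), with 0.0, −0.06 and 0.0 in C24xCol. *PIF5* was higher by 0.09, 0.08 and 0.46 (mean 0.21, adjusted p = 0.316). By direction *PIF5* was higher in ColxC24 (0.32, 0.58 and 0.95) and lower in C24xCol (−0.13, −0.41 and −0.03). *IAA29* had the same signs in each number (means 0.417 and −0.155). These pooled differences thus do not describe a change shared by both directions. With the block and without WT-C24xCol replicate 2, which stood apart in its clock genes, the *PIF5* difference was 0.33 (SE 0.11, adjusted p = 0.0480), an alternative chosen after the values had been seen.

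Between the accessions, 0 of 6 members differed in WT, with 0 and 1 at an unadjusted p under 0.05, beside 3.8% without and 6.82% with the block. *PIF4* was close in WT-C24 and WT-Col in every number (0.05, 0.17 and −0.01 log2 units). *PIF5* was higher in WT-C24 in numbers 1 and 2 (0.62 and 0.89) and lower in number 3 (−0.28), and *IAA29* was higher in each (0.15, 0.64 and 0.59). The number 2 values rest on WT-C24 replicate 2, whose clock genes stood apart from those of WT-Col replicate 2. No fit without WT-C24 replicate 2 is given here. In *ddm1*, 0 of 6 members differed without the block, with 0 at an unadjusted p under 0.05, beside 13.3%, and 1 of 6 with it, beside 32.0%. The called member was *YUC9*, which was lower in *ddm1*-C24 than in *ddm1*-Col by 0.54, 0.75 and 0.76 (1.7 against 2.7, 1.7 against 3.2 and 0.8 against 1.7 RPM). Its blocked difference was −0.68 (SE 0.20, adjusted p = 0.0374), and without *ddm1*-C24 replicate 2 it was −0.65 (SE 0.24, adjusted p = 0.136). *PIF4* had −0.98, −3.07 and −0.23 in this comparison (blocked −1.43, SE 0.47, adjusted p = 0.0595), and without that library −0.61 (SE 0.21, adjusted p = 0.116). *PIF5* went from −0.69 (SE 0.46) to 0.11 (SE 0.17) and *IAA29* from −1.08 (SE 0.48) to −0.30 (SE 0.30).

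To see whether the members deviated from additivity in hybrids, each F1 was set against the MPV. The mean of both WT-F1 directions was above the MPV in every number for *PIF4* (0.18, 0.25 and 0.49), *PIF5* (0.04, 0.05 and 0.45) and *IAA29* (0.23, 0.05 and 0.32). WT-ColxC24 alone was below it for *PIF5* in numbers 1 and 2 (149.9 against 151.1 and 74.5 against 94.65 RPM). It was also below for *IAA29* in number 2 (5.2 against 5.65 RPM). The number 2 values hold WT-C24xCol and WT-C24 replicate 2, whose clock genes stood apart. The mean of both directions was below the MPV in every number for *YUC8* (−0.03, −0.11 and −0.59) and *IAA19* (−0.15, −0.22 and −0.003). WT-C24xCol alone was above it for *YUC8* in number 1 (1.7 against 1.35 RPM) and for *IAA19* in number 3 (3.8 against 3.55 RPM). None of the 6 members passed the limma test, with 0 and 1 at an unadjusted p under 0.05, beside 0.0672% without and 0.399% with the block. The blocked difference of *PIF4*, the member with the smallest adjusted p, was 0.31 (SE 0.11, adjusted p = 0.245).

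The mean of both *ddm1*-F1 directions was above the MPV in every number for *PIF4* (0.22, 0.78 and 0.35), *YUC8* (0.02, 0.46 and 0.04) and *IAA29* (0.38, 1.12 and 0.05). For *YUC8* the directions disagreed. *ddm1*-ColxC24 had 2.9, 4.6 and 1.6 RPM, above MPVs of 2.2, 2.1 and 1.45 RPM. *ddm1*-C24xCol was below them in every number (1.7, 2.0 and 1.4 RPM). It was also below the MPV of *IAA29* in number 3 (0.7 against 0.75 RPM). 0 of 6 passed without the block, with 0 at an unadjusted p under 0.05, beside 2.23%, and 1 of 6 with it, beside 19.9%. The called member was *PIF4* (0.45, SE 0.13, adjusted p = 0.0284). In number 2 its MPV was 69.9 RPM, the mean of 125.3 RPM in *ddm1*-Col and 14.5 RPM in *ddm1*-C24, against 126.2 and 115.1 RPM in the hybrids. Without *ddm1*-C24 replicate 2, and so without that MPV, the difference was 0.28 (SE 0.13, adjusted p = 0.237), beside 9.41% of tested genes. The deviation from MPV did not pass the test between *ddm1* and WT for any member, with 0 at an unadjusted p under 0.05 without and with the block, beside 0.761% and 2.62%. For *PIF4* the difference of deviations was 0.14 (SE 0.24) with the block and −0.04 (SE 0.25) without *ddm1*-C24 replicate 2.

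**Figure D4:**
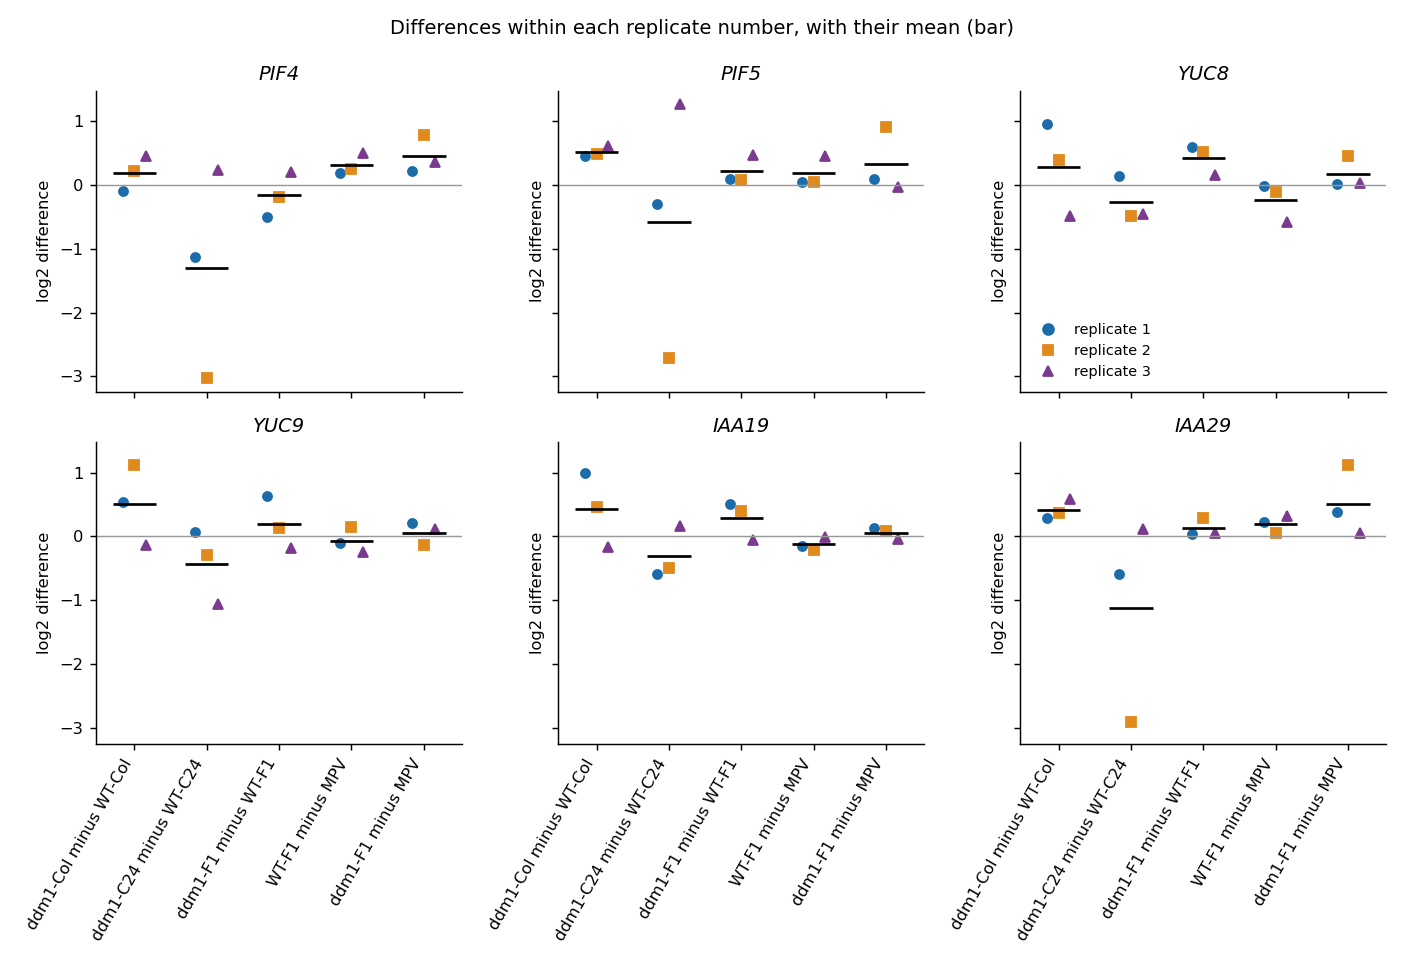
Log2 difference (vertical) of each member within each replicate number for 5 comparisons (horizontal), colour and shape giving the number and the black bar the mean of the 3. For *PIF5* the 3 points of *ddm1*-Col minus WT-Col lie close together at 0.45 to 0.61, while those of *ddm1*-C24 minus WT-C24 spread from −2.72 to 1.26, the lowest being replicate 2.

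Against single parents, WT-F1 exceeded WT-Col in every number for *PIF4* (0.21, 0.34 and 0.49), *PIF5* (0.39, 0.56 and 0.32) and *IAA29* (0.31, 0.41 and 0.64). 0 of 6 passed, with 0 and 2 at an unadjusted p under 0.05, beside 0.932% without and 9.02% with the block. *IAA29* came nearest (0.45, SE 0.10, adjusted p = 0.0506 with the block), and with the block on rescaled values it passed (0.51, adjusted p = 0.0343). Against WT-C24, 0 of 6 passed, with 0 and 1 at an unadjusted p under 0.05, beside 2.41% and 14.8%. The mean of both WT-F1 directions was then above the parent in each number for *PIF4* (0.16, 0.17 and 0.50) and below it for *YUC8* (−0.21, −0.31 and −0.53) and *YUC9* (−0.07, −0.14 and −0.33). In number 1 WT-C24xCol alone was above WT-C24 for *YUC8* (1.7 against 1.6 RPM) and *YUC9* (2.0 against 1.6 RPM). The number 2 values hold WT-C24xCol and WT-C24 replicate 2, whose clock genes stood apart. *ddm1*-F1 against *ddm1*-Col also called 0 of 6, with 0 at an unadjusted p under 0.05 in both fits, beside 2.1% and 19.2%, and *PIF4* differed by −0.19, −0.06 and 0.24.

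*ddm1*-F1 against *ddm1*-C24 called 0 of 6 members without the block, with 0 at an unadjusted p under 0.05, beside 14.9%, and 3 of 6 with it, beside 46.9%. The share of members is thus near that of all genes. *PIF4* was higher in *ddm1*-F1 by 0.79, 3.01 and 0.47 (blocked 1.42, SE 0.38, adjusted p = 0.0127). *YUC9* was higher by 0.50, 0.29 and 0.54 (blocked 0.44, SE 0.16, adjusted p = 0.0404), and *IAA29* had 0.79, 2.96 and −0.004 (blocked 1.25, SE 0.44, adjusted p = 0.0408). Without *ddm1*-C24 replicate 2 only *PIF4* passed (0.63, SE 0.15, adjusted p = 0.00865), beside 38.9% of tested genes. *IAA29* then had 0.39 (adjusted p = 0.249) and *YUC9* 0.52 (adjusted p = 0.0539). *YUC9*, like *PIF4*, was higher than this parent in each number, and so were *YUC8* (0.25, 0.70 and 0.07) and *IAA19* (0.66, 0.78 and 0.04) as means of both directions. *ddm1*-C24xCol alone was not above *ddm1*-C24 for *YUC8* in numbers 1 and 3 (1.7 against 1.8 and 1.4 against 1.4 RPM). Nor was it for *IAA19* in number 3 (2.8 against 3.3 RPM). *PIF5* had 0.81 (SE 0.40) with that library and −0.02 (SE 0.17) without it.

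The reciprocal hybrids, which have the same nuclear genotype but different mothers, gave a pattern of signs. In WT, *PIF4* was higher in C24xCol than in ColxC24 in all 3 numbers (0.10, 0.15 and 0.45), as were *PIF5* (0.11, 0.79 and 0.40), *YUC8* (0.55, 0.12 and 0.16) and *IAA29* (0.22, 0.32 and 0.12). In *ddm1* the same 4 genes were lower in C24xCol in all 3 numbers: *PIF4* by −0.36, −0.13 and −0.48, *PIF5* by −0.34, −0.21 and −0.58, *YUC8* by −0.63, −1.03 and −0.14, and *IAA29* by −0.04, −0.80 and −0.22. *YUC9* and *IAA19* were lower in *ddm1* in all 3 numbers as well (means −0.35 and −0.38) but mixed in WT. 4 of 6 members had these opposite signs, beside 2.04% of all tested genes (456 genes). The reverse pattern was seen in 318 genes and 0 members. Counting either direction, 3.47% of tested genes (774 genes) had opposite signs in all numbers. Members that move together, such as *PIF4* and *PIF5*, are not independent in this count.

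The tests of these differences gave less. In WT 0 of 6 members passed, with 0 at an unadjusted p under 0.05 without and with the block, beside 0.0224% in either fit. In *ddm1* 0 of 6 passed without the block, with 0 at an unadjusted p under 0.05, beside 0.0% of tested genes. With the block *PIF5* alone passed (−0.38, SE 0.07, adjusted p = 0.0472), with 5 members at an unadjusted p under 0.05, beside 0.932%. *PIF4* had −0.32 (SE 0.07, adjusted p = 0.0713). The interaction, *ddm1* minus WT, was −0.81 (SE 0.19) for *PIF5*, −0.88 (SE 0.27) for *YUC8*, −0.57 (SE 0.22) for *IAA29* and −0.56 (SE 0.21) for *PIF4* with the block. Their unadjusted p were 0.00117, 0.00690, 0.0263 and 0.0214. None passed adjustment over all genes (adjusted p = 0.808 for each), beside 0.0% of tested genes without the block and 0.00448% with it, and without the block 0 members had an unadjusted p under 0.05. Without WT-C24xCol replicate 2 the *PIF5* interaction was −0.65 (SE 0.16, adjusted p = 0.721). In the *ddm1* hybrids *ELF4* was higher in C24xCol (0.56, SE 0.10, adjusted p = 0.0306 with the block).

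**Figure D5:**
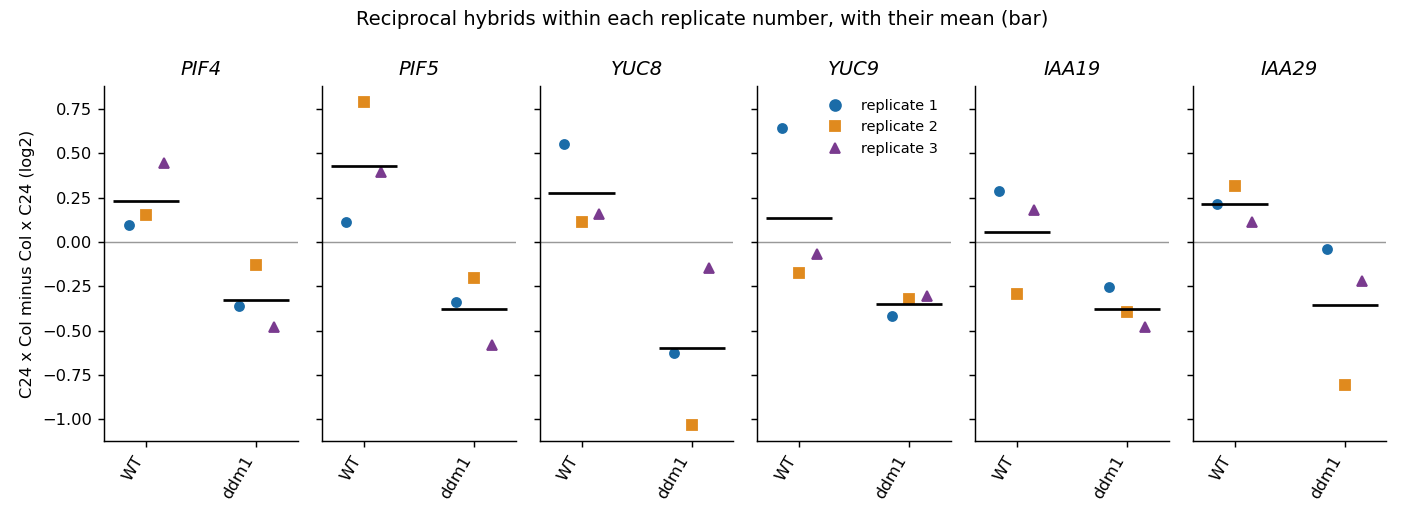
Log2 difference between the reciprocal hybrids, C24xCol minus ColxC24 (vertical), in WT and in *ddm1* (horizontal) for each member, colour and shape giving the replicate number and the black bar the mean of the 3. For *PIF4*, *PIF5*, *YUC8* and *IAA29* all WT points lie above 0 and all *ddm1* points below it; the means for *PIF5* are 0.43 and −0.38.

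The wider pathway was followed with lists of genes other than the members. Of 9 PIF relatives, 7 were lower and 0 higher in number 3 than in number 1 (median −0.89, beside 0.27 for all genes). They included *PIF1* (−1.35, SE 0.06, adjusted p = 5.32e-13), a repressor of seed germination in the dark, *PIF7* (−1.45, SE 0.11, adjusted p = 5.17e-10), a factor of shade growth, and *PIF3* (−0.78, SE 0.08, adjusted p = 2.31e-08), the founding member of the family. Auxin response genes of the SAUR and GH3 families were lower for 12 of 14 and higher for 0 (median −1.22), among them *GH3.5* (−2.01, SE 0.11, adjusted p = 6.01e-12), an enzyme that joins auxin to amino acids, and *SAUR20* (−1.75, SE 0.15, adjusted p = 2.19e-09), a small protein of cell expansion. *SAUR20* belongs to a cluster of near-identical genes, *SAUR19* to *SAUR24*, among which reads could have been split, so its value is uncertain. Shade and elongation targets were lower for 12 of 21 and higher for 5, with *EXPA8*, an expansin that loosens cell walls, at −2.13 (SE 0.20, adjusted p = 1.12e-08) and *PRE6* and *PRE1*, small helix-loop-helix proteins that promote elongation, at −1.56 (SE 0.13, adjusted p = 1.24e-09) and −1.78 (SE 0.19, adjusted p = 6.52e-08).

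Other Aux/IAA genes moved the other way, as *IAA19* did. 14 of 19 were higher and 2 lower in number 3 than in number 1 (median 0.68), led by *IAA13* (1.68, SE 0.06, adjusted p = 5.02e-15) and *IAA4* (1.34, SE 0.06, adjusted p = 4.96e-13). In the auxin synthesis list 3 of 6 tested genes were higher, a share near the 54.9% of all genes, and 0 lower. The 3 were *TAA1* (0.65, SE 0.09, adjusted p = 1.12e-06), *TAR2* (0.51, SE 0.07, adjusted p = 1.96e-06) and *YUC3* (0.42, SE 0.12, adjusted p = 0.00404), while *YUC2*, *YUC5* and *YUC6* did not pass. After rescaling by median ratios the auxin synthesis list had 2 higher and 2 lower, and the Aux/IAA list 12 higher and 5 lower. Of 5 auxin response factors, 4 were lower and 0 higher, *ARF7* (−0.99, SE 0.05, adjusted p = 2.12e-12) and *ARF19* (−1.22, SE 0.06, adjusted p = 1.1e-12) among them, both activators of auxin-induced genes. Of 6 auxin receptors 4 were higher and 1 lower, of 6 transport genes 1 higher and 4 lower (after rescaling 0 and 6), and of 7 DELLA and brassinosteroid partners of PIFs 3 higher and 4 lower (after rescaling 0 and 4). Of 11 photoreceptors and light repressors 6 were higher, again near the share of all genes, and 2 lower, and after rescaling 4 higher and 6 lower. Rescaling also removed the excess of higher genes among the auxin receptors (1 higher, 2 lower), but left the direction of the PIF relatives (9 lower), the SAUR and GH3 genes (13 lower) and the elongation targets (15 lower, 2 higher).

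Between genotypes fewer genes of these lists were called. In *ddm1*-C24 against WT-C24 without the block, *UNE10* (−0.93, SE 0.19, adjusted p = 0.0371), a PIF relative, *IAA3* (−1.11, SE 0.25, adjusted p = 0.0496) and *FHL* (−1.67, SE 0.27, adjusted p = 0.0124), which carries phytochrome A to the nucleus, were among the lower genes, and the root marker *IRT1* was higher (3.0, adjusted p = 0.0414). In *ddm1*-C24 against *ddm1*-Col, *IAA1* (−2.20, SE 0.47, adjusted p = 0.0223), *IAA3* (−0.96, SE 0.25, adjusted p = 0.0459) and *PIN7* (−1.15, SE 0.29, adjusted p = 0.0423), an auxin efflux carrier, were lower. In *ddm1*-F1 against *ddm1*-C24 the same 3 genes were higher, *IAA1* by 1.97 (SE 0.42, adjusted p = 0.0106), *IAA3* by 1.01 (SE 0.22, adjusted p = 0.0115) and *PIN7* by 1.00 (SE 0.17, adjusted p = 0.00256), a comparison that shares the *ddm1*-C24 libraries. *ATHB4*, a homeodomain factor of shade, was lower (−1.06, SE 0.20, adjusted p = 0.00529) and *GA20OX1*, an enzyme of gibberellin synthesis, higher (0.92, SE 0.22, adjusted p = 0.0187). All these comparisons hold *ddm1*-C24 replicate 2, whose PIF and clock levels lay with number 3. No fit without that library is given for these genes, and its part in the calls was not tested. Between numbers 3 and 1 *IAA1* stood at −1.07 and *IAA3* at 0.43. In *ddm1*-F1 against WT-F1, *YUC5*, another auxin synthesis gene, was higher (0.50, SE 0.14, adjusted p = 0.0357). Several of these genes were low over the 24 libraries. *YUC5* ran from 0.3 to 1.5 RPM, *GA20OX1* from 0.2 to 1.9, *ATHB4* from 0.8 to 3.6 and *FHL* from 0.4 to 7.1 RPM. At such levels steps of 0.1 RPM are coarse.

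With the block, *ddm1*-F1 exceeded its MPV for 7 of 19 Aux/IAA genes, 7 of 21 elongation targets and 2 of 9 PIF relatives, and was below it for 0, 1 and 0 of them. Over all 22329 tested genes 1093 were higher and 3345 lower. The leading examples were *IAA3* (0.45, SE 0.08, adjusted p = 0.00174), *PIN3* (0.43, SE 0.06, adjusted p = 0.000714), an auxin carrier of tropic growth, and *BEE3* (0.59, SE 0.09, adjusted p = 0.00103), a factor of brassinosteroid response. Without *ddm1*-C24 replicate 2 4 of 19, 2 of 21 and 0 of 9 were higher and 0 lower, beside 422 higher and 1679 lower of all tested genes. In WT-F1 against its MPV 0 genes of these lists passed, without and with the block.

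The patterns most like those of the members were read as Pearson correlations over the 24 libraries among 16173 or 16174 genes with a mean of at least 5 RPM. These libraries share the replicate numbers, so the values describe likeness only. The genes most like *PIF4* were AT5G02760 (r = 0.985, Spearman rho = 0.954), AT1G21500 (r = 0.984) and *CAB1* (r = 0.984), which encodes a chlorophyll-binding protein. Those most like *PIF5* were *COL5* (r = 0.991, rho = 0.970), a CONSTANS-like factor, *LHB1B2* (r = 0.985) and *STO* (r = 0.984), and with genotype means removed *PIF4* itself was next to the top (r = 0.994). For *IAA29* they were *LHCA4* (r = 0.970), *BBX15* (r = 0.969) and *LHCB6* (r = 0.967), 2 of them encoding antenna proteins of photosystems. For *IAA19* they were AT3G23450 (r = 0.924), *DOT1* (r = 0.912) and AT3G54360 (r = 0.911). *YUC8* and *YUC9* had weaker partners, led by AT4G32020 (r = 0.734) and AT1G20823 (r = 0.764). Among the members themselves *PIF4* and *PIF5* had r = 0.975 (rho = 0.890) over the 24 libraries, *PIF4* and *IAA29* r = 0.830, *YUC8* and *YUC9* r = 0.709, and *PIF4* and *IAA19* r = −0.235.

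Within a replicate number, where the 8 libraries are the 8 genotypes, these relations varied with the number. *PIF4* and *IAA29* had r = 0.723, 0.957 and 0.648 in numbers 1, 2 and 3, and 0.136, 0.416 and 0.719 without *ddm1*-C24. *PIF4* and *IAA19* had r = 0.145, 0.6 and 0.353, and −0.601, −0.405 and 0.473 without *ddm1*-C24. *PIF4* and *PIF5* had r = 0.164 in number 1 (rho = 0.190), 0.948 in number 2 (rho = 0.643) and 0.730 in number 3 (rho = 0.719). Without the 2 libraries farthest from the *PIF4* median the values were −0.142, 0.371 and 0.377. In number 2 those libraries were *ddm1*-C24 and WT-C24xCol, and without *ddm1*-C24 alone r was 0.634. Of 27 relations computed (*PIF4* with *PIF5*, and each PIF with the 4 other members, in 3 numbers), the strongest was *PIF5* with *IAA29* in number 2 (r = 0.970, exact permutation p = 0.00213, adjusted p = 0.0576; rho = 0.881, exact permutation p = 0.00724, n = 8), with r = 0.608 without the 2 farthest libraries. The same pair had r = 0.418 in number 1 and 0.585 in number 3. *PIF5* and *IAA19* had r = 0.724, 0.518 and 0.295 in numbers 1, 2 and 3, and *PIF5* and *YUC9* had r = 0.403, 0.358 and −0.698. None of the 27 Pearson relations passed adjustment over them.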

How the data were processed

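RNA was sequenced from whole seedlings, and reads per gene were deposited by the authors as RPM, scaled to a fixed total per library. Per the study's methods the authors aligned reads to TAIR10 with TopHat2 and counted them with HTSeq; versions, strand setting and depth are not given in the sources used here. The deposited RPM are multiples of 0.1, columns sum to 999819.3 to 1000187.1, and read counts were not recovered, so no count test was run. All 24 columns were mapped to samples and 0 columns of other samples were present. The 4 bisulfite samples were not analysed here.

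The 22329 of 28437 genes that reached 1 RPM in 3 or more libraries were tested with limma 3.58.1 (R 4.3.3, with trend) on log2(RPM + 0.5), which understates changes of low genes. Each comparison used its own libraries, without a block, and Benjamini-Hochberg adjustment over all tested genes (0.05). The MPV has 3 values per background and varies less than single libraries. Samples are plates in triplicate, so p-values may measure technical spread. Replicate numbers paired the samples: with genotype means removed, all 84 same-numbered pairs of libraries correlated (mean r 0.757, lowest 0.159). The 168 other pairs had a mean of −0.36. Removing genotype means pushes these pairs below 0 when same-numbered pairs correlate, so their mean is no separate sign of pairing. Because of the same-numbered pairs, values with the number as a block are given beside the others. This pairing did not hold well for *ddm1*-C24 replicate 2. Its mean r was 0.298 with the 7 other libraries numbered 2 and 0.659 with 7 libraries numbered 3. Blocked fits that use this library therefore pair it with a number it resembled less.

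Alternatives were pseudocounts of 0.1 and 1, no filter, rescaling by median ratios, no trend, all genotypes in one fit, single directions of the cross, the MPV on the log2 scale, the block, and each library left out. Chosen after seeing the data were fits without *ddm1*-C24 replicate 2, with *ddm1*-C24 replicates 2 and 3 averaged, without WT-C24xCol and WT-C24 replicate 2, and the reciprocal interaction. Loci and upstream sequences came from RefSeq TAIR10.1, in which all 6 loci matched (*PIF5* is listed as PIL6). All 6 genes were named, with up to 3 genes per list and comparison of smallest adjusted p and the 3 genes of highest r with each. The genes and lists were chosen with earlier results of these data known. The limma steps were tested on simulated data.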

Additional observations from a re-analysis of the deposited data

Results flagged for a closer look

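With 30 groups of values examined in all, not only those of single replicate numbers, 3 single libraries stood far from the others, where chance gives about 1 in 20 groups. Each of the 3 was found among the 8 libraries of a replicate number. *PIF4* in number 2 was lowest in *ddm1*-C24, at 14.5 RPM, with the next library at 108.1 RPM. *YUC8* in number 2 was highest in *ddm1*-ColxC24, at 4.6 RPM, with the next at 2.6 RPM. *IAA29* in number 3 was lowest in WT-Col, at 0.3 RPM, with the next at 0.7 RPM.

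The reciprocal difference, C24xCol minus ColxC24, had opposite signs in WT and *ddm1* in every number for 4 genes. Its mean was 0.231 in WT and −0.325 in *ddm1* for *PIF4*, 0.431 and −0.375 for *PIF5*, 0.276 and −0.6 for *YUC8*, and 0.216 and −0.356 for *IAA29*. The limma interaction did not pass adjustment for any of them (adjusted p = 0.808 with the block).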

How the results depend on the processing

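Without the block 0 of 6 genes were called in each of the 15 genotype comparisons. With the replicate block 1 was called for *ddm1* in Col, 1 for the accessions in *ddm1*, 3 for *ddm1*-F1 against *ddm1*-C24, 1 for *ddm1*-F1 against MPV and 1 for the reciprocal hybrids in *ddm1*. The block changed no other call. With block and rescaling these were 1, 1, 4, 1 and 2, and 1 for WT-F1 against WT-Col. With the block, 1 remained for *ddm1*-F1 against *ddm1*-C24 without *ddm1*-C24 replicate 2, and 1 appeared for *ddm1*-F1 against WT-F1 without WT-C24xCol replicate 2. 5 genes were called between replicate numbers, 6 after rescaling or in *ddm1* alone and 4 in WT alone, where *YUC8* stood at 0.27 (adjusted p = 0.0538) and *YUC9* at 0.17. With 1 library left out *YUC8* ran from −0.21 (without WT-Col replicate 3) to 0.013 (without *ddm1*-ColxC24 replicate 3), and it was not called without WT-ColxC24 replicate 2 (adjusted p = 0.0538) or *ddm1*-ColxC24 replicate 2 (adjusted p = 0.0745).

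Leaving out 1 library without the block left the replicate numbers unbalanced and turned signs. *PIF5* in *ddm1*-Col ran from −0.53 (without WT-Col replicate 3) to 1.51 (without *ddm1*-Col replicate 3), and it was −0.18 without *ddm1*-Col replicate 1. *IAA29* in WT-F1 against WT-Col ran from −0.27 (without WT-Col replicate 3) to 1.02, and *PIF4* in *ddm1*-F1 against MPV from −0.47 (without the parents numbered 3) to 1.14. In the *ddm1* reciprocal hybrids *PIF4* ran from −1.25 to 0.68 and *PIF5* from −1.29 to 0.65, with 0.26 and 0.27 without *ddm1*-ColxC24 replicate 1 and 0.0153 for *PIF4* without *ddm1*-ColxC24 replicate 2. Of the 80 differences between genotypes that were called neither without the block, nor with it, nor with block and rescaling, 124 of 714 values with 1 library left out and 28 of 819 others changed sign, and 1 was called, *PIF5* in *ddm1*-F1 against WT-F1 as above. Depth is unknown, and at a few RPM small differences in *YUC8*, *YUC9*, *IAA19* and *IAA29* may not have been detectable.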
